A study of Mus musculus with 4 samples.

Results

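Tcf7-positive cells were activated mouse CD8+ T cells with 2 or more UMIs (unique molecular identifiers, each counting 1 captured transcript) of Tcf7, and 989 of 9921 cells met this rule. They were thus chosen by their measured Tcf7 UMIs. Tcf7 lies on chromosome 11 (GRCm38, 52252371 to 52283014, minus strand). Cells were droplet barcodes with at least 6500 UMIs, at least 500 genes and under 10% of UMIs in mitochondrial genes. The Tcf7-positive cells were set against the 8005 cells of the same libraries without a Tcf7 UMI (Tcf7-zero cells), and the 927 cells with 1 Tcf7 UMI stayed out of both classes. Tcf7 itself chose the cells, so its values are given as a description and were not tested.

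Tcf7 encodes TCF-1, an HMG-box transcription factor that acts at the end of the canonical Wnt pathway. In CD8+ T cells it is known for maintaining naive, memory and stem-like cells, which keep the capacity to divide and to give rise to effector cells. Such cells usually carry lymph node homing and survival receptors such as CCR7 and CD127 (Il7r), and effector differentiation is accompanied by loss of TCF-1 and by gain of granzymes and perforin.

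Single-cell RNA was counted in 4 cultures grown from the spleens of 2 mice of the genotype gBT-I.CD45.1 tg, which carry a transgenic T cell receptor for a herpes simplex virus peptide. The butyrate group held 2 cultures, 1 from each mouse, that received 0.5 mM sodium butyrate between day 3 and day 5 after activation. The control group held the other culture of each mouse, given PBS in its place. Cultures of both groups were activated with peptide-pulsed B6 splenocytes and LPS and grown in recombinant human IL-2, and viable CD8+ cells with the Vα2 receptor chain were sorted and captured on day 6. Butyrate is a fatty acid that gut bacteria release by fermenting fibre, and it inhibits histone deacetylases. All cells carry the same receptor transgene and were grown in vitro, and no age is given for the mice.

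Library totals ranged from 64388093 to 76522004 UMIs, and 2065 to 2657 cells were kept per library. No Tcf7-positive barcode was shared between libraries, and 1 to 5 kept barcodes were shared by each pair of libraries. In single cells a count of 0 does not show absence of a transcript, so Tcf7-zero cells are cells without a captured Tcf7 molecule. Summed levels are given in CPM, UMIs of a sum scaled to a common total with TMM, a normalization for composition. Against the labelled cell type, the 15 CD8 T cell marker genes summed to 11713 to 12478 CPM in Tcf7-positive and 9302 to 13174 CPM in Tcf7-zero cells. Of the defining genes of other cells, the B cell genes Cd79a, Ms4a1 and Pax5, the NK cell gene Ncr1 and the macrophage genes Lyz2 and Adgre1 had 0 UMIs in the Tcf7-positive cells. Others had UMIs there, among them the myeloid genes Cd68 (78 UMIs), Fcgr3 (25) and Itgam (20). Of the NK and innate lymphoid genes, Eomes had 473 UMIs there, Fcer1g 297, Klre1 122 and Tyrobp 107. Ighm stood at 65.6 to 249 CPM, Cd79b at 9.29 to 15.9 CPM (5.04 to 8.59 CPM in Tcf7-zero cells), Trdc at 74.1 to 203 CPM, Gata3 at 19.8 to 48.2 CPM and Ikzf2 at 32.2 to 85.2 CPM. Empty droplets, taken as barcodes with 1 to 100 UMIs, held these 5 genes too, with Cd79b at 11.5 and 11.6 CPM of their UMIs in butyrate and 7.72 and 9.95 CPM in control, and Ighm at 44.1 and 40.6 CPM in butyrate and 148 and 153 CPM in control.

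Tcf7-positive cells made up a smaller share of the butyrate cultures. They were 98 of 2561 and 120 of 2657 cells in the butyrate libraries, or 3.83% (exact 95% binomial interval 3.12 to 4.64) and 4.52% (3.76 to 5.38). In the control libraries they were 339 of 2065 and 432 of 2638 cells, or 16.4% and 16.4%, with both intervals inside 14.8 to 18.1. The groups did not overlap, with means of 4.17 ± 0.49% in butyrate and 16.4 ± 0.029% in control (SD, n = 2 cultures each). Just inside the threshold, 44 and 65 butyrate cells and 110 and 131 control cells had 2 Tcf7 UMIs. Just outside it, 198 and 225 butyrate cells and 236 and 268 control cells had 1.

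Depth bears on such a threshold. Tcf7-positive cells had fewer UMIs than Tcf7-zero cells in 4 of 4 libraries, with medians of 23148 and 20316.5 against 24882 and 23807.5 UMIs in butyrate, and 16154 and 16359 against 23306 and 22002 UMIs in control (exact sign-flip permutation test at the smallest p that 4 libraries allow, adjusted over 5 measures p = 0.208). When every cell was thinned at random to 6500 UMIs, 0.781 and 1.35% of butyrate cells and 7.99 and 7.77% of control cells still had 2 or more Tcf7 UMIs. Among the Tcf7-positive cells, the summed Tcf7 level was 126 and 136 CPM in butyrate and 217 and 219 CPM in control, so the butyrate members also stood lower on the measure that chose them. Free RNA held Tcf7 too, at 7.91 and 8.82 CPM of the UMIs in empty droplets of butyrate and 49.97 and 43.4 CPM in those of control, and its part in the share was not tested.

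**Figure D1:**
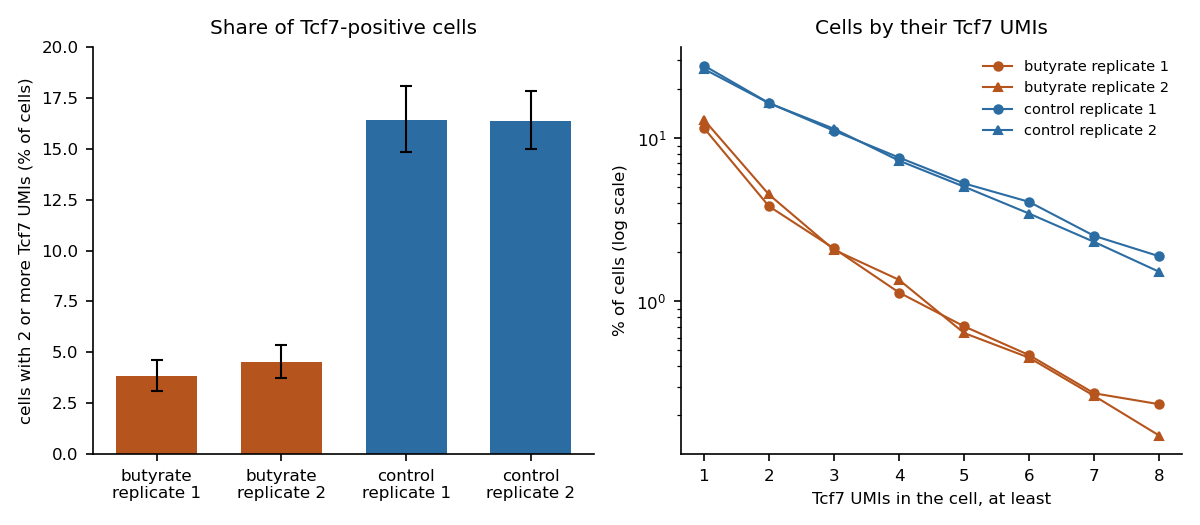
Left, percent of cells with 2 or more Tcf7 UMIs in each library, with exact 95% binomial intervals as error bars. Right, percent of cells with at least the given number of Tcf7 UMIs (log scale), by library; the butyrate libraries lie below the control libraries at every number from 1 to 8.

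Tcf7-positive cells lay near each other on other genes as well. Neighbours were taken within each library from 2000 variable genes without Tcf7, after thinning every cell to 6500 UMIs. In this space 12.4 and 16.2% of the 30 nearest neighbours of a Tcf7-positive cell in butyrate were themselves Tcf7-positive, against 2.12 and 2.51% of the neighbours of Tcf7-zero cells. In control these shares were 40.5 and 38.5%, against 9.09 and 9.25%.

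The first comparison asked how Tcf7-positive cells differed from Tcf7-zero cells of the same libraries. Higher in the Tcf7-positive cells were Id3 and Ccr7, interferon response genes, genes of resting lymphocytes and several homing receptors. Lower were granzymes, perforin, targets of IL-2 signalling, and genes of ribosome biogenesis and cholesterol synthesis. UMIs were summed per class and library and tested with edgeR's quasi-likelihood test with the library as a block, and Benjamini-Hochberg adjusted p under 0.05 counted as passing. Of 11915 genes tested, 2601 passed (21.8%), with 842 higher (7.07%) and 1759 lower (14.8%). This split follows the scaling: median-of-ratios size factors gave 1123 higher and 1076 lower, and unscaled library totals gave 1053 and 658. Without butyrate replicate 2 the counts were 591 and 936, without control replicate 1 they were 454 and 426, and without control replicate 2 they were 397 and 399. Without butyrate replicate 1 they were 1222 and 2073.

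Among transcription factors of stem and memory cells, 9 of the 15 tested were higher in Tcf7-positive cells and 1 was lower, with a median log2 difference of 0.62 against -0.06 over all genes. Id3, an inhibitor of E proteins that marks memory precursors, stood at 70.8 and 41.6 CPM in Tcf7-positive cells of butyrate and 93.9 and 68.0 CPM in those of control, against 13.4, 10.4, 8.84 and 11.1 CPM in the Tcf7-zero cells of these libraries. The classes did not overlap (log2 difference 2.64 ± 0.21 SE, edgeR adjusted p = 0.000435). Bcl11b, a factor that holds T cell identity, was higher by 0.67 on the log2 scale, Bach2, a repressor of effector genes, by 1.05, and Lef1, the other TCF family factor of T cells, by 0.59. Lef1 did not pass when only cells with 2 or 3 Tcf7 UMIs were taken as positive (0.45, adjusted p = 0.068). Eomes, a T-box factor of effector and memory cells, was the factor that was lower, at 17.6, 18.7, 22.8 and 25.4 CPM in Tcf7-positive and 44.4, 53.4, 59.2 and 69.6 CPM in Tcf7-zero cells (log2 difference -1.42 ± 0.08).

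Of 18 surface and survival genes of stem and memory cells tested, 11 were higher in Tcf7-positive cells and 0 lower, with a median log2 difference of 1.24. Without control replicate 1 the count was 7, and without control replicate 2 it was 6. Ccr7, the chemokine receptor for lymph node entry, stood at 72.6 and 54.3 CPM in Tcf7-positive cells of butyrate and 72.1 and 49.6 CPM in those of control, against 14.8, 15.6, 7.99 and 6.33 CPM in Tcf7-zero cells (log2 difference 2.58 ± 0.22, adjusted p = 0.000604). At 6500 UMIs a Ccr7 transcript was seen in 33.7 and 26.7% of Tcf7-positive cells in butyrate and 36.9 and 26.6% in control, and in 6.71, 7.40, 6.17 and 4.08% of Tcf7-zero cells. Cd7, a T cell surface glycoprotein, was higher by 2.33, the chemokine gene Xcl1 by 2.36 and the costimulatory receptor gene Cd27 by 1.18. Xcl1 did not pass after thinning to 10000 UMIs (1.88, adjusted p = 0.087). Slamf6, a surface receptor of stem-like cells, was higher by 2.23, but did not pass without control replicate 2 (1.98, adjusted p = 0.070).

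For S1pr1, Il7r and Klf2 the difference between classes was larger in both control cultures than in either butyrate culture. The third comparison takes up this difference between treatments. S1pr1, the receptor for egress from lymph nodes, was higher by 1.31 (adjusted p = 0.011) and did not pass without control replicate 1 (1.24, adjusted p = 0.057) or with 2 or 3 Tcf7 UMIs as positive (1.10, adjusted p = 0.069). It stood at 10.9, 18.7, 29.8 and 31.3 CPM in Tcf7-positive and 9.96, 9.37, 10.0 and 8.58 CPM in Tcf7-zero cells, and a transcript was seen in 13.3, 15.8, 18.3 and 19.2% of Tcf7-positive and 6.67, 5.58, 7.58 and 6.60% of Tcf7-zero cells at 6500 UMIs. Both lists give the butyrate libraries and then the control libraries. Il7r (1.31, adjusted p = 0.0988) and Klf2, a transcription factor of resting T cells that drives S1pr1 (1.27, adjusted p = 0.144), did not pass. With the mouse in place of the library as the block, Il7r passed (1.33, adjusted p = 0.041), and without butyrate replicate 1 both did (1.70 each, adjusted p = 0.020 for Il7r and 0.034 for Klf2).

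Bcl2, which protects lymphocytes from apoptosis, stood at 314, 303, 312 and 289 CPM in Tcf7-positive and 291, 287, 374 and 338 CPM in Tcf7-zero cells, a log2 difference of -0.08 ± 0.08. The classes overlapped.

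**Figure D2:**
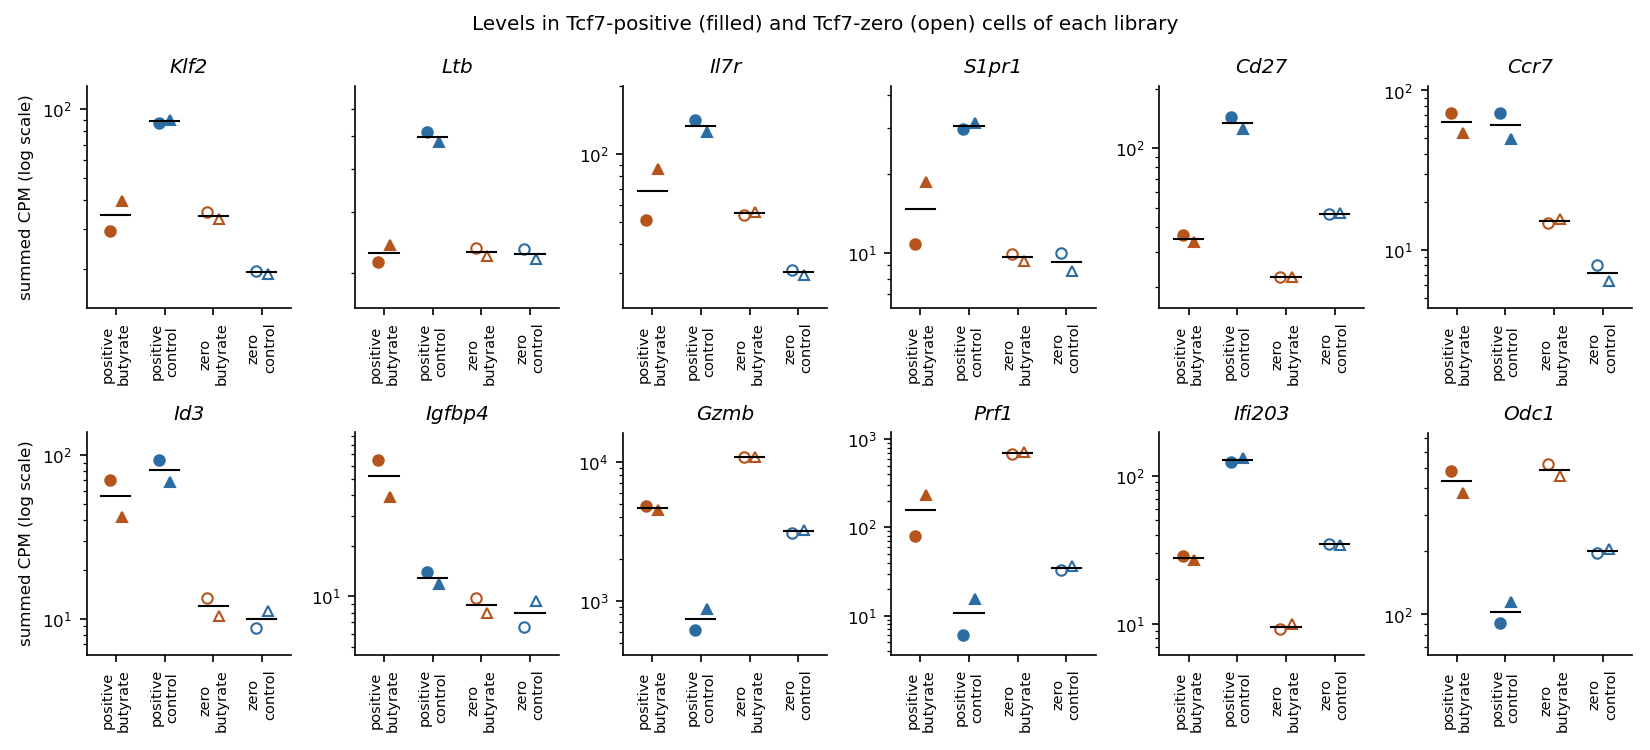
Summed CPM (log scale) of 12 genes in Tcf7-positive cells (filled) and Tcf7-zero cells (open) of the butyrate (orange) and control (blue) libraries; circles are replicate 1, triangles replicate 2 and lines the mean of 2. Klf2 and Il7r were highest in Tcf7-positive control cells, while Ccr7 and Id3 were higher in both Tcf7-positive groups than in either Tcf7-zero group.

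Interferon response genes were higher as a group. Of 37 tested, 27 were higher in Tcf7-positive cells and 3 lower, with a median log2 difference of 1.09, and between 24 and 29 were higher when 1 library was left out. The 3 lower genes, Ifitm1, Ifitm2 and Ifitm3, which encode membrane proteins that restrict viral entry, are named here after their values were seen. Ifi203, an Ifi200 family gene for a DNA-sensing type of nuclear protein, stood at 28.8 and 27.1 CPM in Tcf7-positive cells of butyrate and 124 and 131 CPM in those of control. In Tcf7-zero cells it stood at 9.24 and 9.99 CPM in butyrate and 34.5 and 34.3 CPM in control (log2 difference 1.76 ± 0.10, adjusted p = 1.36e-05). The class difference was thus seen within each treatment. Ifi27l2a, an interferon-stimulated mitochondrial protein gene, was higher by 1.86 (adjusted p = 7.53e-06), Gbp2, a guanylate-binding protein gene, by 1.79, Ifi213 by 2.23 and Ifi206 by 1.34. UMIs of the Ifi200 and Slfn family members may be assigned to a close paralogue, and this was not resolved.

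The interferon-stimulated response element is the DNA sequence bound by STAT and IRF factors after interferon. It was searched as GAAA, any 2 bases and GAAA again, on both strands in RefSeq promoter windows (GRCm38.p6, 250 bases before to 50 bases after each start). Of the 27 interferon response genes higher in Tcf7-positive cells, 21 matched a window and 16 of these (76.2%) held the letters, against 3.99% of all 27025 genes with a window. They were also held by 4 of the 11 matched genes among the 15 largest increases and by 4 of the 14 matched genes among the 15 largest decreases. The list was drawn up as interferon response genes, and its members that were not higher were not searched apart. The share thus describes the list and cannot decide on the class. A TCF/LEF core was searched as CTTTGAT on both strands, with letters that do not overlap the first motif. It occurred in windows of 0 of those 21 genes, 1 of the 11 matched genes among the 15 largest increases, and 4.29% of all genes. The 150 bases before the start are shown for 3 genes of the largest increases, with the matched letters in capitals. Calhm6, a calcium homeostasis modulator family gene higher by 1.32, was the gene with both motifs, and its TCF/LEF match is the one capitalized.

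Ifi203 (chr1:173942493-173942642, minus strand): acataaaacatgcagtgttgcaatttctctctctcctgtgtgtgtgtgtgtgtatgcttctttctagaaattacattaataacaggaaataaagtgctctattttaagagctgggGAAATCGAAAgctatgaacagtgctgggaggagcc
Gbp2 (chr3:142620513-142620662, plus strand): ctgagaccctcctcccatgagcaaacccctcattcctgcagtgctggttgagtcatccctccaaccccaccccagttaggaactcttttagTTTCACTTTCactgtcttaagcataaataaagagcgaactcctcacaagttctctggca
Calhm6 (chr10:34127973-34128122, minus strand): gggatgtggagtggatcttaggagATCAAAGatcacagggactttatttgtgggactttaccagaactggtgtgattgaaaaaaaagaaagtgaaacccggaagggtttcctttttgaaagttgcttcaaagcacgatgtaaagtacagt

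Genes of resting lymphocytes were higher as well. Of 22 quiescence genes tested, 13 were higher and 0 lower, with a median log2 difference of 0.50, and without control replicate 2 the count was 8. Pik3ip1, an inhibitor of PI3 kinase signalling, was higher by 1.26, Cdkn1b, the cyclin-dependent kinase inhibitor p27, by 0.86, and the lymphocyte survival GTPase gene Gimap4 by 0.67. Among the 15 largest increases were also Pdcd4, an inhibitor of translation (1.46), Mxd4, an antagonist of Myc (1.33), and Slfn1, a growth-regulating Schlafen gene (1.54). Serpina3g, a protease inhibitor gene, was higher by 1.63, and Sh3bp5 by 1.33. Igfbp4, an insulin-like growth factor binding protein gene, was higher by 1.64 (adjusted p = 0.0272) and did not pass without butyrate replicate 1 (1.21, adjusted p = 0.086), butyrate replicate 2 (1.43, adjusted p = 0.064) or control replicate 1 (1.88, adjusted p = 0.29). Fxyd7, a regulator of the sodium pump, was higher by 1.37 and did not pass without control replicate 1 (adjusted p = 0.058) or 2 (adjusted p = 0.18).

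Effector molecules were lower in Tcf7-positive cells for 17 of 29 genes tested and higher for 5, with a median log2 difference of -0.66. Without control replicate 2 the counts were 10 lower and 0 higher. The 5 higher genes, named after their values were seen, were the NK receptor genes Klrk1 (0.54) and Klrd1 (0.76), Ctsw (0.32), Srgn (0.36) and Lamp1 (0.22). Gzmb, the granzyme of cytotoxic granules, stood at 4790 and 4511 CPM in Tcf7-positive cells of butyrate and 617 and 871 CPM in those of control, against 10812, 10841, 3096 and 3236 CPM in Tcf7-zero cells (log2 difference -1.66 ± 0.19, adjusted p = 0.002). It did not pass without control replicate 2 (-1.53, adjusted p = 0.078). Gzmc was lower by -1.86 and Gzmk by -1.86 on the log2 scale, and UMIs of the granzymes may be shared between close paralogues.

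Prf1, the pore-forming perforin, stood at 79.0 and 233 CPM in Tcf7-positive cells of butyrate and 5.99 and 15.4 CPM in those of control, against 680, 718, 33.2 and 36.6 CPM in Tcf7-zero cells (log2 difference -2.08 ± 0.29, adjusted p = 0.00468). It did not pass without control replicate 1 (-1.94, adjusted p = 0.19), with 3 or more Tcf7 UMIs (-2.98, adjusted p = 0.097) or in cells under the median G2M share (-1.70, adjusted p = 0.11). Gzma was lower by -2.37 and did not pass without control replicate 2 (-2.32, adjusted p = 0.14). Gzmd had 2 and 16 UMIs in Tcf7-positive cells of butyrate and 0 and 29 UMIs in those of control, against 2646, 6490, 449 and 679 UMIs in Tcf7-zero cells. Havcr2, the inhibitory receptor TIM-3, was lower by -2.27 (adjusted p = 2.28e-05). Of 17 inhibitory and exhaustion genes, 4 were lower and 4 higher, beside 14.8% lower and 7.07% higher of all genes tested. With Havcr2, the lower ones were Pdcd1 (-0.70), Cd244a (-1.19) and Entpd1 (-1.04), and the higher ones were Lag3 (0.39), Cd160 (0.38), Cd200 (1.92) and Tox (1.40), a factor of persistent T cells.

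The distribution over single cells was broad. At 6500 UMIs per cell, Tcf7-positive cells held a median of 17 and 12 Gzmb UMIs in butyrate and 2 and 3 in control, and Tcf7-zero cells held 42 and 40 in butyrate and 12 and 13 in control. No Gzmb UMI was seen in 5.10 and 3.33% of Tcf7-positive cells in butyrate and 28.3 and 20.4% in control. Among the Tcf7-positive cells, 18.4 and 18.3% in butyrate and 4.13 and 6.71% in control exceeded the Tcf7-zero median of their own library. The number was lower than in Tcf7-zero cells of the same culture. Free RNA adds to these UMIs, and Gzmb made up 9615 and 8957 CPM of the UMIs in empty droplets of butyrate and 2521 and 2633 CPM in those of control. These levels were above the summed levels of the Tcf7-positive cells, so UMIs of 1 cell do not show that it expressed Gzmb, and the part of free RNA was not tested.

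**Figure D3:**
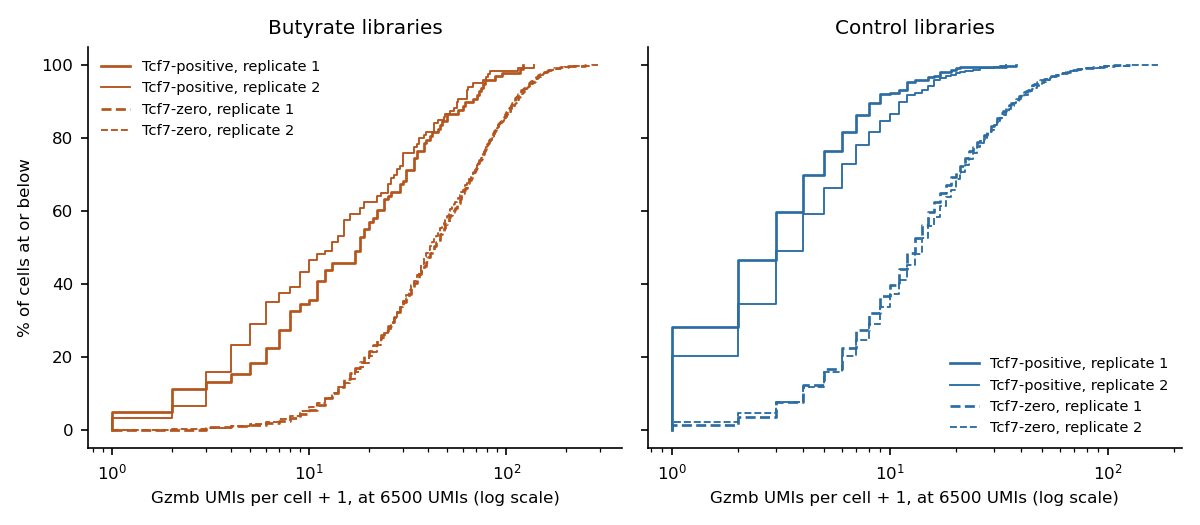
Cumulative percent of cells (y axis) by Gzmb UMIs per cell plus 1 (x axis, log scale) after thinning each cell to 6500 UMIs, in butyrate (left) and control (right) libraries. The curves of Tcf7-positive cells (solid) lie to the left of those of Tcf7-zero cells (dashed) in both treatments.

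Other named genes were also among the 15 largest decreases. Fcer1g, a signalling adaptor, was lower by -1.93, Emilin2, an extracellular matrix gene, by -1.83, Lat2, an adaptor of immune receptor signalling, by -1.60, and Zbtb32, a repressor induced in effector lymphocytes, by -1.48. Lmna, the nuclear lamin A gene, was lower by -1.54, Spp1, the osteopontin gene, by -1.43, and Fkbp11, a chaperone of the secretory pathway, by -1.42. None of these last 3 passed without control replicate 1 (adjusted p = 0.066, 0.26 and 0.077) or 2 (adjusted p = 0.18, 0.25 and 0.067), and Spp1 did not without butyrate replicate 2 (adjusted p = 0.053). Of 15 effector transcription factors, 6 were lower and 2, Maf (0.63) and Rora (0.89), were higher. Nfil3 was lower by -0.80 and Id2, which favours effector fate, by -0.80, and Prdm1, the gene of the effector factor Blimp-1, by -1.01.

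Targets of IL-2 and STAT5 were lower for 12 of 19 genes and higher for 1, Il2rg (0.37), with a median of -0.45. Il2ra, the high-affinity IL-2 receptor chain, stood at 197 and 175 CPM in Tcf7-positive cells of butyrate and 63.1 and 77.5 CPM in those of control, against 338, 343, 136 and 141 CPM in Tcf7-zero cells (log2 difference -0.93 ± 0.07). Tnfrsf9, the costimulatory receptor 4-1BB, was lower by -1.33 and the feedback regulator Socs2 by -0.74. Of 26 Myc and ribosome biogenesis genes, 22 were lower and 0 higher, with a median of -0.66. Leaving out control replicate 1 gave 9 and leaving out control replicate 2 gave 4, and the median was then -0.43 and -0.49. Bop1 and Nhp2, which act in ribosome assembly, were lower by -0.87 and -0.68. Of 24 cholesterol synthesis genes, 18 were lower and 0 higher (median -0.46), and the count was 6 when either control replicate was left out. Hmgcs1, an early enzyme of the sterol pathway, was lower by -0.75.

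Over all cells, cell cycle transcripts did not shift between classes in 1 direction. Of 52 G2M genes, 7 were higher and 1, Rangap1 (-0.35), was lower, and of 42 S phase genes 0 were higher and 7 lower. Of all genes tested, 7.07% were higher and 14.8% lower, so the count of lower S phase genes was near the share over all genes. Top2a, the topoisomerase of dividing cells and named here after its value was seen, was higher by 0.30 (adjusted p = 0.013). The share of UMIs in the G2M list was higher in 2 of 4 libraries, at 0.701, 0.689, 0.936 and 0.834% in Tcf7-positive and 0.588, 0.584, 0.988 and 0.959% in Tcf7-zero cells (exact permutation p = 1). The share in the S list was lower in 3 of 4 libraries, on average 0.320% in Tcf7-positive and 0.369% in Tcf7-zero cells (exact permutation p = 0.25). Mki67, a marker of dividing cells, stood at 382, 399, 488 and 468 CPM in Tcf7-positive and 437, 411, 563 and 520 CPM in Tcf7-zero cells (log2 difference -0.15 ± 0.06, adjusted p = 0.113). It passed in cells under the median G2M share (-1.10, adjusted p = 0.0012) and with 2 or 3 Tcf7 UMIs as positive (-0.24, adjusted p = 0.034). The first subset was cut on G2M transcripts, which go with division as Mki67 does, so it cannot decide on a class difference. At 6500 UMIs a Mki67 transcript was seen in fewer Tcf7-positive cells in 4 of 4 libraries, on average 60.7% against 73.4% of Tcf7-zero cells (exact permutation test, adjusted over 15 genes p = 0.144, at the smallest p that 4 libraries allow). The cyclin-dependent kinase inhibitor gene Cdkn1a was lower by -1.11 (adjusted p = 6.87e-05). Ribosomal protein genes took a larger share of UMIs in 4 of 4 libraries, on average 30.6% of Tcf7-positive and 28.5% of Tcf7-zero cells (exact permutation test, adjusted p = 0.208). Of 24 Wnt pathway and TCF partner genes tested, 3 were higher and 0 lower, beside 7.07% higher and 14.8% lower of all genes, and their median was -0.04 against -0.06. The 3 were Tcf12 (0.49), which did not pass in cells of 15000 to 30000 UMIs (0.32, adjusted p = 0.058), the corepressor gene Tle4 (0.54) and Axin2, a feedback target of Wnt signalling (0.95, adjusted p = 0.0427). Axin2 did not pass without butyrate replicate 2, control replicate 1 or control replicate 2 (adjusted p = 0.14, 0.27 and 0.071).

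The values of other cell types beside these results were as follows. The 12 NK and innate lymphoid marker genes summed to 78.3 to 99.1 CPM in Tcf7-positive and 151 to 227 CPM in Tcf7-zero cells, and 4 of the 6 tested were lower. The 13 B cell genes summed to 84.6 to 264 CPM in Tcf7-positive and 61.5 to 125 CPM in Tcf7-zero cells. Ighm, the largest part in both classes of every library, was higher by 0.97. Ighm stood at 66.3 and 65.6 CPM in Tcf7-positive cells of butyrate and 249 and 238 CPM in those of control, against 40.6, 38.1, 107 and 113 CPM in Tcf7-zero cells, with Cd79a at 0. The 10 gamma-delta T cell genes summed to 189 to 278 CPM in Tcf7-positive and 139 to 207 CPM in Tcf7-zero cells. Trdc, likewise the largest part, was higher by 0.49. The 12 dendritic cell genes other than Ccr7 summed to 36.4 to 58.5 CPM in Tcf7-positive and 29.2 to 53.3 CPM in Tcf7-zero cells. Myeloid genes summed to 3.00 to 15.5 CPM in Tcf7-positive and 3.31 to 19.8 CPM in Tcf7-zero cells. For CD4 and regulatory T cell genes the sums were 271 to 383 CPM in Tcf7-positive and 241 to 549 CPM in Tcf7-zero cells. The part of these transcripts in the class difference was not tested.

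The second comparison asked how Tcf7-positive cells of butyrate cultures differed from those of control cultures. Within this class, butyrate went with more Gzmb and Lta and more transcripts of effector transcription factors and Myc-linked genes. It went with less Klf2, Cd27 and Il7r and fewer Ifi200 and Schlafen transcripts. Ccr7 and Id3 did not pass in the main test, and Id3 was lower and passed in several alternatives. Of 10171 genes tested by edgeR over 2 against 2 cultures, 4037 passed (39.7%), with 1915 higher (18.8%) and 2122 lower (20.9%). DESeq2 gave 1285 higher and 897 lower, and without control replicate 1 edgeR gave 1274 and 1559. The butyrate sums held 2657680 and 2778487 UMIs and the control sums 6442448 and 8206938, so the butyrate values are the less precise. Fewer transcripts per cell and another mix of cells within the class cannot be told apart in these sums.

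Klf2 stood at 29.2 and 39.8 CPM in Tcf7-positive cells of butyrate against 86.9 and 89.8 CPM in those of control (log2 fold change -1.35 ± 0.13, adjusted p = 2.05e-06). The groups did not overlap. Cd27 stood at 36.3 and 33.5 CPM in butyrate against 144 and 125 CPM in control (-1.95 ± 0.12, adjusted p = 2.31e-08). Both genes were lower in both butyrate cultures than in either control culture.

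Il7r stood at 51.3 and 86.4 CPM in butyrate against 142 and 125 CPM in control (-0.95 ± 0.18, adjusted p = 0.00251), without overlap, and did not pass in DESeq2 (-0.90, adjusted p = 0.066). S1pr1 stood at 10.9 and 18.7 CPM in butyrate against 29.8 and 31.3 CPM in control (-1.04 ± 0.19, adjusted p = 0.000569). It did not pass in cells with 3 or more Tcf7 UMIs (-0.51, adjusted p = 0.21) or after thinning to 10000 UMIs (-0.69, adjusted p = 0.15). Lef1 was lower by -0.54 and did not pass without butyrate replicate 1 (-0.28, adjusted p = 0.087), with 3 or more Tcf7 UMIs (-0.29, adjusted p = 0.29) or after thinning to 10000 UMIs (0.0058, adjusted p = 0.99).

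Ccr7 and Id3, which were higher in the class in both treatments, did not pass for butyrate in the main test. Ccr7 stood at 72.6 and 54.3 CPM in butyrate against 72.1 and 49.6 CPM in control (0.07 ± 0.19, adjusted p = 0.799), and the groups overlapped. In cells under the median G2M share Ccr7 was -0.52 and passed (adjusted p = 0.042). Id3 stood at 70.8 and 41.6 CPM in butyrate against 93.9 and 68.0 CPM in control (-0.52 ± 0.28, adjusted p = 0.199). Id3 passed in edgeR without the expression filter (-0.53, adjusted p = 0.0038) and without cells over 2.5 times the median UMIs (-0.65, adjusted p = 0.017). It also passed in cells under the median G2M share (-0.97, adjusted p = 0.00022). Id3 passed with the mouse as a block too (-0.55, adjusted p = 0.0014), a fit with 1 residual degree of freedom. It was -0.95 without butyrate replicate 1 and -0.75 without control replicate 2. These 2 fits leave 1 culture in an arm, so a pass there is doubtful. Slamf6 (-0.53, adjusted p = 0.0634), Xcl1 (-0.15, adjusted p = 0.781) and Bcl2 (0.04, adjusted p = 0.750) did not pass. Slamf6 did at a mitochondrial limit of 5% (-0.67, adjusted p = 0.030), and was -0.70 without butyrate replicate 2 and -0.74 without control replicate 2.

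As groups, 10 of 18 stem and memory surface genes were lower and 1 was higher in butyrate, with a median log2 fold change of -0.82 against -0.06 over all genes. Of the 15 stem and memory transcription factors, 8 were lower and 2, Foxo1 (0.63) and Nfkb1 (0.32), were higher (median -0.52). The gene that was higher among the surface genes was Igfbp4, at 64.8 and 39.1 CPM in butyrate against 13.9 and 11.8 CPM in control (2.02 ± 0.20, adjusted p = 3.32e-06). Cd7 was lower by -1.62 and Bcl11b by -0.78, which did not pass after thinning to 10000 UMIs (-0.47, adjusted p = 0.060). Of 22 quiescence genes, 13 were lower and 2, Rgs2 (1.24) and Rcan3 (0.64), were higher (median -0.65). Among the lower were Slfn2 (-2.51), Cdkn1b (-1.66) and Tsc22d3, a glucocorticoid-induced leucine zipper gene (-1.88). Of 15 CD8 T cell marker genes, 11 were lower and 1, Trbc2 (0.37), was higher, with Cd5, a brake on receptor signalling, at -0.997 and Trbc1 at -0.69. Trbc1 did not pass after thinning to 10000 UMIs (-0.28, adjusted p = 0.18).

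Interferon response genes were lower for 20 of 35 and higher for 8, with a median of -0.64. Of all genes tested there, 20.9% were lower and 18.8% higher, so the count of higher ones was near the share over all genes. Ifi203 fell to 28.8 and 27.1 CPM in butyrate, against 124 and 131 CPM in control (-2.19 ± 0.12, adjusted p = 4.88e-09). Ifi208 was lower by -2.35, Ifi214 by -2.21, Ifi206 by -2.16 and Samd9l, an interferon-induced antiviral gene, by -2.13. Other large decreases were Slfn1 (-2.62), Mxd4 (-2.37), the glycolytic enzyme gene Aldoc (-3.18), the sialyltransferase gene St3gal6 (-2.73), the peptidase gene Dpp4 (-2.23) and the efflux pump gene Abcb1b (-2.17). Several of these genes were also among those higher in Tcf7-positive than in Tcf7-zero cells.

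Of 25 effector molecules tested, 9 were higher and 5 lower in butyrate, with a median of 0.39. Of all genes tested there, 18.8% were higher and 20.9% lower, so the count of lower effector genes was near the share over all genes. The 5 lower, named after their values were seen, were Klrd1 (-0.69), Cst7 (-0.66), Ctsw (-0.56), Klrk1 (-0.55) and Lamp1 (-0.42). Gzmb stood at 4790 and 4511 CPM in butyrate against 617 and 871 CPM in control (2.64 ± 0.16, adjusted p = 2.54e-05). Empty droplets held more, at 9615 and 8957 CPM in butyrate and 2521 and 2633 CPM in control. The part of this free RNA in the Gzmb change was not tested. The cytokine gene Lta stood at 325 and 262 CPM in butyrate against 10.5 and 15.9 CPM in control (4.44 ± 0.16, adjusted p = 3.45e-11), and the metallothionein gene Mt3 at 70.4 and 43.0 CPM against 1.65 and 1.84 CPM (4.99 ± 0.27, adjusted p = 4.88e-09). Neither butyrate culture overlapped the control cultures for these 3 genes. After thinning to 10000 UMIs, Lta (4.47, adjusted p = 0.13) and Mt3 (5.26, adjusted p = 0.11) did not pass.

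Gzmc was higher by 2.99 and did not pass after thinning (2.89, adjusted p = 0.084). Higher were also the creatine kinase gene Ckb by 3.33, the stress gene Gadd45g by 3.27, Syngr1 by 2.91, the TGF-beta feedback gene Pmepa1 by 2.91, Tesc by 2.77, Hemk1 by 2.67 and Asb2 by 2.51. Batf3, an AP-1 family factor, was higher by 3.07 (adjusted p = 0.0357), and did not pass with the mouse as a block (3.17, adjusted p = 0.080) or without butyrate replicate 1 (adjusted p = 0.23) or 2 (adjusted p = 0.32). Prf1, at 79.0 and 233 CPM in butyrate against 5.99 and 15.4 CPM in control, did not pass (3.81 ± 0.98, adjusted p = 0.106), but did in DESeq2 (3.92, adjusted p = 0.00037) and with the mouse as a block (3.85, adjusted p = 2e-24). The blocked fit leaves 1 residual degree of freedom over 4 sums, and with replicates this far apart so small a p is doubtful. Prf1 also passed, at smaller changes, in cells of 15000 to 30000 UMIs (2.29, adjusted p = 0.043) and after thinning to 10000 UMIs (2.26, adjusted p = 0.0032). Without cells over 2.5 times the median UMIs it passed as well (2.95, adjusted p = 0.0002). Gzma did not pass in the main test either (3.30, adjusted p = 0.0838), but did in DESeq2 (3.36, adjusted p = 2.5e-05) and with the block (3.40, adjusted p = 1.7e-06). The same doubt holds for its blocked fit. Gzma also passed without cells over 2.5 times the median UMIs (3.52, adjusted p = 0.026) and with 2 or 3 Tcf7 UMIs (3.63, adjusted p = 0.034).

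Effector transcription factors were higher for 13 of 15 genes and lower for 0 (median 0.94), including Id2 (1.23) and Irf8 (1.59). Cdkn1a was higher by 2.34 and Prdm1 by 1.69. Prdm1 did not pass with 3 or more Tcf7 UMIs (1.14, adjusted p = 0.073) or in cells under the median G2M share (0.80, adjusted p = 0.10). IL-2 and STAT5 targets were higher for 14 of 19 and lower for 2 (median 0.90), including the costimulatory receptor gene Tnfrsf4 (2.36) and Il2ra (1.39), and the lymphotoxin gene Ltb was lower by -1.12. Of 26 Myc and ribosome biogenesis genes, 18 were higher and 1, Mycn, was lower (median 0.60), with Myc at 1.24 and Odc1, the rate-limiting enzyme of polyamine synthesis, at 2.07. Mycn did not pass in DESeq2 (adjusted p = 0.24) or without butyrate replicate 1 (adjusted p = 0.34). Of 52 G2M genes, 35 were lower and 5 higher (median -0.54). Mki67 was lower by -0.29 and did not pass without control replicate 1 (adjusted p = 0.13) or 2 (adjusted p = 0.060). Cenpa, a centromere histone gene, was lower by -0.92, and in cells under the median G2M share it did not pass (-0.25, adjusted p = 0.49). That subset was cut on the G2M list, to which Cenpa belongs, so it cannot decide on this gene.

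Among the 842 genes higher in Tcf7-positive than in Tcf7-zero cells, 816 were tested for butyrate within the Tcf7-positive cells, where 456 were lower and 52 higher, beside 20.9% lower and 18.8% higher of all genes tested there. Within the Tcf7-zero cells 839 of them were tested, with 461 lower and 193 higher, beside 33.8 and 36.4%. Among the 1759 genes lower in Tcf7-positive cells, 1673 were tested, where 774 were higher and 101 lower, and in Tcf7-zero cells 854 of 1759 were higher and 487 lower. Each of these comparisons shares cells with the class comparison, so the counts are not independent.

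The third comparison asked whether butyrate changed genes differently in Tcf7-positive and Tcf7-zero cells, by the interaction of class and treatment in edgeR over all 8 sums. Klf2 and Il7r were lower under butyrate in Tcf7-positive cells and higher under butyrate in Tcf7-zero cells of the same cultures. In Tcf7-zero cells 9293 of 13236 genes passed (70.2%), 4820 higher (36.4%) and 4473 lower (33.8%), and unscaled totals gave 3175 and 6624. The interaction passed for 1817 of 12624 genes (14.4%), 745 with a higher change in Tcf7-positive cells (5.9%) and 1072 with a lower one (8.49%). Unscaled totals gave 1676 and 481, and shifted the median interaction of all genes to 0.14 from -0.04 under TMM. Taking 3 or more Tcf7 UMIs as positive gave 123 and 263, and leaving out 1 library gave 354 to 791 and 489 to 1013. The lowest were 354 without butyrate replicate 1 and 489 without control replicate 1.

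In Tcf7-zero cells Klf2 stood at 35.4 and 33.1 CPM in butyrate against 19.7 and 19.0 CPM in control, a change of 0.83 that ran opposite to the -1.35 in Tcf7-positive cells (difference of changes -2.18 ± 0.13, adjusted p = 5.09e-20). Il7r stood at 53.7 and 55.9 CPM in butyrate against 30.8 and 29.4 CPM in control, a change of 0.87 (difference -1.81 ± 0.14, adjusted p = 2.56e-07). In butyrate cultures the Klf2 and Il7r levels of the Tcf7-positive cells thus overlapped those of the Tcf7-zero cells, while in control cultures they were apart.

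Ccr7 rose by 1.10 in Tcf7-zero cells (adjusted p = 6.01e-07), and its interaction was -1.02 ± 0.13 (adjusted p = 8.05e-08). Slamf6 rose there by 1.28 (interaction -1.81, adjusted p = 4.67e-09). S1pr1 changed by 0.06 (adjusted p = 0.529), with an interaction of -1.11 (adjusted p = 4.07e-05) that did not pass with 3 or more Tcf7 UMIs (-0.56, adjusted p = 0.31), after thinning (-0.71, adjusted p = 0.37) or in cells under the median G2M share (-0.48, adjusted p = 0.26). Cd27 fell in both classes, by -1.07 in Tcf7-zero cells, with an interaction of -0.87 (adjusted p = 2.77e-07) that did not pass after thinning to 10000 UMIs (-0.62, adjusted p = 0.15). Igfbp4 went the other way, with a change of 0.13 in Tcf7-zero cells (adjusted p = 0.591) and an interaction of 1.89 ± 0.19 (adjusted p = 1.56e-09). Gzmb rose by 1.77 in Tcf7-zero cells and its interaction did not pass (0.89, adjusted p = 0.181). It did in DESeq2 (0.91, adjusted p = 0.0027), without control replicate 1 (0.70) and without control replicate 2 (1.16). The interaction of Id3 (-0.76, adjusted p = 0.456) and of Xcl1 (0.51, adjusted p = 0.370) did not pass. Id3 did in DESeq2 (-0.78, adjusted p = 0.039), and in edgeR without the expression filter (-0.76, adjusted p = 0.012). It also did without cells over 2.5 times the median UMIs (-0.79, adjusted p = 1.4e-06). The Id3 interaction passed in cells under the median G2M share (-0.67, adjusted p = 0.037) and with 2 or 3 Tcf7 UMIs (-0.53, adjusted p = 0.017). Its interaction was -1.13 without control replicate 2, and that of Xcl1 was 1.82 without butyrate replicate 1. Fits without a library leave 1 culture in an arm, so a pass there is doubtful.

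**Figure D4:**
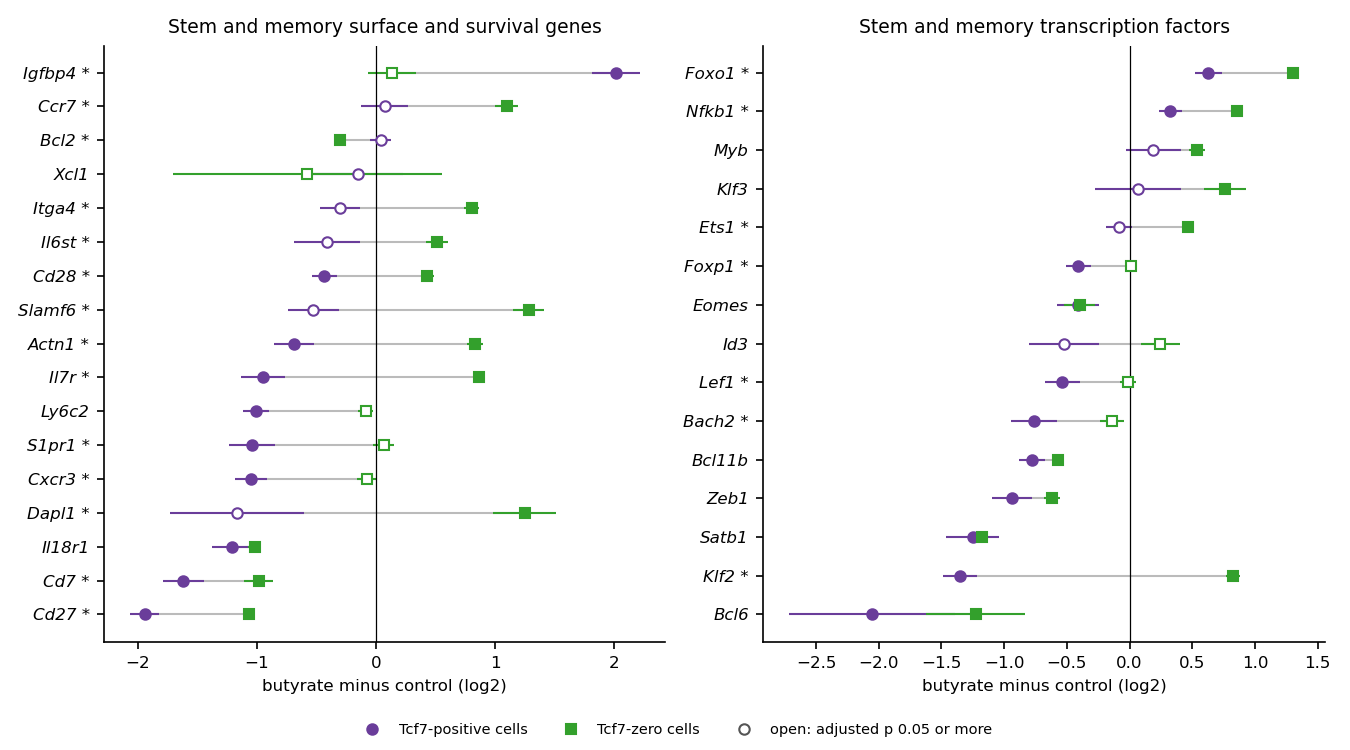
Butyrate against control (log2, with SE) in Tcf7-positive cells (circles) and Tcf7-zero cells (squares) for stem and memory surface and survival genes (left) and transcription factors (right). Filled symbols passed at an adjusted p under 0.05, and an asterisk marks genes whose interaction passed; Klf2 and Il7r lie below 0 in Tcf7-positive and above 0 in Tcf7-zero cells.

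By group, 13 of 18 stem and memory surface genes had a lower change in Tcf7-positive than in Tcf7-zero cells and 2 a higher one (median interaction -0.95 against -0.04 over all genes). Of the 15 transcription factors, 7 had a lower change and 0 a higher one (median -0.54), as had 11 and 0 of 22 quiescence genes (median -0.36) and 11 and 0 of 15 CD8 T cell marker genes (median -0.39). Of 26 Myc and ribosome biogenesis genes, 20 had a higher change and 0 a lower one (median 0.73), but 2 did with 3 or more Tcf7 UMIs. Without butyrate replicate 1 this count was 13, and the quiescence count was 7 without butyrate replicate 1 and without control replicate 1.

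The 6 smallest interaction p-values with a higher change were those of the G1 kinase gene Cdk6 (0.91), the nucleolin gene Ncl (0.73), the translation factor gene Eif5a (0.57), Odc1 (0.78), the chromatin gene Set (0.61) and Hemk1 (1.32). Odc1 did not pass after thinning to 10000 UMIs (0.04, adjusted p = 0.96), nor did Odc1 (0.34, adjusted p = 0.38), Ncl (0.65, adjusted p = 0.37) or Eif5a (0.51, adjusted p = 0.11) with 3 or more Tcf7 UMIs. Those with a lower change were, after Klf2, the calcium-binding protein genes S100a10 (-0.99) and S100a4 (-0.80), the lymphotoxin gene Ltb (-1.13), and the lymphocyte surface genes Ms4a4b (-0.95) and Cd52 (-0.73). Ltb stood at 215 and 241 CPM in Tcf7-positive cells of butyrate against 514 and 479 CPM in those of control, and at 236 and 224 CPM against 235 and 220 CPM in Tcf7-zero cells.

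Levels were also taken by the number of Tcf7 UMIs in the cell, the measure that chose the cells, and are given here as CPM of unscaled totals with no test. Klf2 in cells with 2 Tcf7 UMIs stood at 9.49 and 31.8 CPM in butyrate against 63.3 and 66.9 CPM in control. In cells with 4 or more, a bin with no upper end, it stood at 32.5 and 60.0 CPM in butyrate against 102 and 106 CPM in control. Ccr7 at 4 or more stood at 113 and 89.2 CPM in butyrate against 99.5 and 64.9 CPM in control, and Gzmb at 2941 and 2052 CPM against 513 and 760 CPM. These bins held 29 and 36 butyrate cells, and 12 Klf2 UMIs lie behind the lowest value above.

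**Figure D5:**
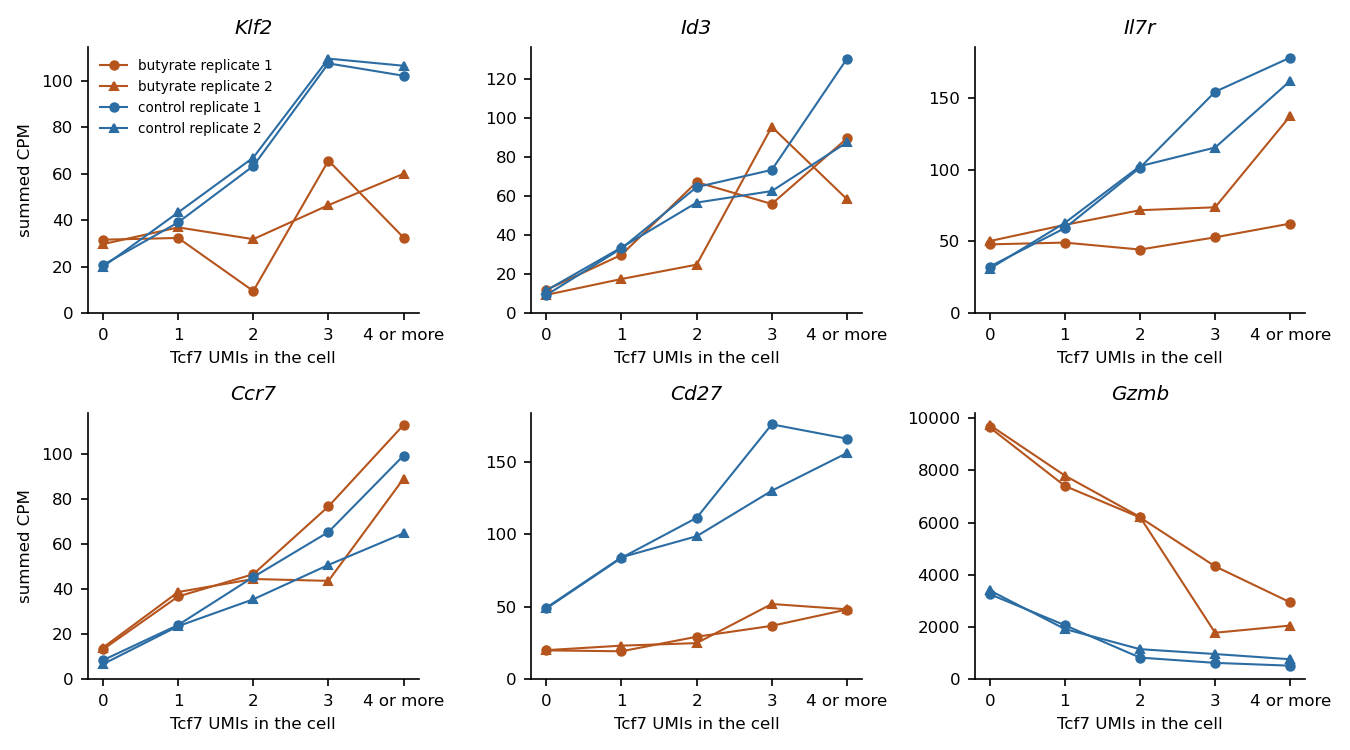
Summed CPM of 6 genes (y axis, unscaled totals) by the number of Tcf7 UMIs in the cell (x axis), for the butyrate (orange) and control (blue) libraries; circles are replicate 1 and triangles replicate 2. Klf2 and Cd27 lay lower in butyrate than in control in every bin of 2 or more Tcf7 UMIs, whereas Ccr7 did not separate the treatments there.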

How the data were processed

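The deposited values were raw UMI counts per gene and droplet barcode in 1 matrix for each of 4 libraries, made by the authors with Cell Ranger 4 for mm10 (GRCm38), per the submitters' processing notes, from 10x 3′ libraries. The matrices list all barcodes, the annotation release is not given in the sources used here, and free RNA was not removed. Its levels were read from barcodes with 1 to 100 UMIs, a measure added after seeing the data. Cells were kept by the UMI, gene and mitochondrial limits given above. No doublet caller was run, and cells over 2.5 times the median UMIs were left out as an alternative.

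UMIs were summed per class and library and tested with edgeR 4.0.16 (limma 3.58.1, R 4.3.3) by the quasi-likelihood test after filterByExpr and TMM scaling, with Benjamini-Hochberg adjustment over all tested genes. The class comparison had the library as a block, and butyrate was tested without a block. DESeq2 1.42.0, other scalings, thresholds, thinning and left-out libraries were alternatives. Leaving out a library leaves 1 sample in an arm, which is assumed to vary like the others. Few residual degrees of freedom remain in these fits and in those with the mouse as a block, so very small p-values from them are doubtful. Python 3.11.15 with scipy 1.17.1 gave the exact tests and binomial intervals, which cover counting error only. The replicate is the culture, 2 per group from 2 mice, so p-values of the butyrate tests measure the spread between these cultures. The class comparison and the interaction had the library as a block. Their edgeR p-values measure how far the difference between classes varied from library to library.

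Per the labels' library names, the 2 cultures of a replicate number come from 1 mouse, so the cultures are paired by animal. Deviations of same-mouse sums from their group means correlated at -0.158 in Tcf7-positive and 0.229 in Tcf7-zero cells. The tests were first tested on simulated counts with known changes. Of true log2 changes of 1, 99% were recovered between classes, 71% for butyrate in Tcf7-positive cells and 79% for the interaction. False calls were 5.69, 5.71 and 1.14% of the calls. The simulated spread was smaller than that found between classes and for butyrate in Tcf7-positive cells, so these rates need not hold for the data.

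Named genes were the 15 largest increases and decreases between classes, the 12 largest for butyrate and the 6 smallest p in each direction for the interaction, at a mean of at least 20 CPM, with a set of always named genes and members of gene lists. The 15 were picked among passing genes with the same direction in all 4 libraries. The 12 were picked among passing genes without overlap between the treatment groups. The members and lists were chosen with earlier results of these data known. Some genes that this rule names are not reported here.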

Additional observations from a re-analysis of the deposited data

Results flagged for a closer look

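The genes below changed differently under butyrate in Tcf7-positive and Tcf7-zero cells, by the interaction term in edgeR at an adjusted p under 0.05. The change was higher in Tcf7-positive cells, on the log2 scale, by 0.91 for Cdk6, 0.73 for Ncl, 0.57 for Eif5a, 0.78 for Odc1, 0.61 for Set, 1.32 for Hemk1, 1.89 for Igfbp4 and 0.34 for Bcl2. It differed by -2.18 for Klf2, -1.81 for Il7r, -1.81 for Slamf6, -1.11 for S1pr1, -1.02 for Ccr7, -0.87 for Cd27 and -0.53 for Lef1. It differed by -0.99 for S100a10, -1.13 for Ltb, -0.95 for Ms4a4b, -0.80 for S100a4 and -0.73 for Cd52. Lef1 did not pass without butyrate replicate 1 (-0.35, adjusted p = 0.052) or control replicate 2 (-0.43, adjusted p = 0.058), in DESeq2 (-0.52, adjusted p = 0.056) or with 3 or more Tcf7 UMIs (-0.26, adjusted p = 0.48). Bcl2 did not pass without control replicate 1 (0.35, adjusted p = 0.053) or with 2 or 3 Tcf7 UMIs (0.19, adjusted p = 0.10). S1pr1, Cd27, Odc1, Ncl and Eif5a each lost the call under an alternative, with the values given above.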

How the results depend on the processing

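Of the passing genes followed through the alternatives, 40 of 56 in the class comparison, 35 of 48 for butyrate in Tcf7-positive cells and 13 of 20 for the interaction passed under every alternative run. The number of genes lower in Tcf7-positive than in Tcf7-zero cells was 1076 with median-of-ratios factors, 658 with unscaled totals, 864 with DESeq2, 941 at a mitochondrial limit of 5% and 911 with 2 or 3 Tcf7 UMIs as positive. The number higher was 1381 with 3 or more Tcf7 UMIs and 403 with 2 or 3. Leaving out 1 library gave 397 to 1222 higher and 399 to 2073 lower. For butyrate in Tcf7-positive cells, DESeq2 gave 897 lower, 3 or more Tcf7 UMIs gave 712 higher and 792 lower, cells of 15000 to 30000 UMIs gave 959 and 1156, thinning to 10000 UMIs gave 482 and 594, and leaving out 1 library gave 1274 to 1714 and 1559 to 1919. In Tcf7-zero cells unscaled totals gave 3175 higher. For the interaction, unscaled totals gave 1676 higher and 481 lower, DESeq2 296 and 385, 3 or more Tcf7 UMIs 123 and 263, cells of 15000 to 30000 UMIs 245 and 518, thinning to 10000 UMIs 98 and 369, and leaving out 1 library 354 to 791 and 489 to 1013. The class of 2 or 3 Tcf7 UMIs and the crossed mouse numbers were alternatives chosen after seeing the data. The cause of these shifts was not tested.

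With the mouse as a replicate block, butyrate in Tcf7-positive cells gave 1823 higher and 2037 lower, and the class comparison with this pairing in place of the library block gave 1129 and 2196. Crossing the mouse numbers gave 2089 and 2324. Beside the genes given with it above, the block changed no other call of a named gene.

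These values turned in direction. Between classes Bcl2 was 0.0097 with unscaled totals, -0.14 to 0.051 when 1 library was left out (0.031 without control replicate 2), 0.090 at the 5% mitochondrial limit, 0.058 in cells under the median G2M share and 3.02e-05 with 2 or 3 Tcf7 UMIs. For butyrate in Tcf7-positive cells, Ccr7 was -0.18 to 0.35 when 1 library was left out (-0.15 without butyrate replicate 1) and -0.18 at the 5% limit. It was -0.52 in cells under the median G2M share, where it passed (edgeR adjusted p = 0.042). Lef1 was 0.0058 after thinning. Bcl2 was -0.012 with unscaled totals, -0.015 to 0.087 when 1 library was left out and -0.083 with 2 or 3 Tcf7 UMIs. Slamf6 was 0.059 in cells of 15000 to 30000 UMIs and 0.16 with 2 or 3 Tcf7 UMIs. Xcl1 was -0.56 to 0.49 when 1 library was left out (0.18 without butyrate replicate 2), 0.65 with 3 or more Tcf7 UMIs, 0.12 after thinning and 0.19 with 2 or 3. Mki67 was 1.00 in cells under the median G2M share, where it passed (edgeR adjusted p = 0.0039) in a subset cut on G2M transcripts. The interaction was 0.053 for Lef1 after thinning, and for Xcl1 -0.00074 to 1.82 when 1 library was left out and -0.12 at the 5% limit.

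In cells of 15000 to 30000 UMIs the classes differed by -1249 median UMIs, 0.013 points in the S list share and 0.24 points in the G2M share, and leaving out 1 library gave -0.024 to 0.055 points for the G2M share (-0.022 without butyrate replicate 2). The butyrate minus control share of Tcf7-positive cells was -14.9 points with 1 or more Tcf7 UMIs, -9.16 with 3 or more, -6.81 thinned to 6500 UMIs and -7.35 thinned to 10000. The 98 and 120 butyrate members limit the precision of every butyrate value in this class.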
